A study of Oryza sativa with 3 samples.

Results

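The miR169 family was examined in embryos of de-hulled rice seeds (Oryza sativa, cultivar Nipponbare) during the first hours of germination. Embryos were dissected at 0, 12 and 24 h after imbibition (HAI) and their small RNAs of 18–30 nt were sequenced, where 0 HAI is the dry seed and the other seeds had been kept in water at 30 °C in the dark. Every mature sequence that the table of known miRNAs assigns to miR169 was taken and counted once, which gave 2 of the 59 known mature sequences and of the 289 named mature sequences of both deposited tables. They are osa-miR169c, with 1 precursor, and osa-miR169ijkmq, with 5 precursors. Each time point is 1 library, made from the mixed RNA of 4 plates of 50 seeds, and nothing compared between the times has a replicate check. The limits and tests given here cover counting error between libraries and not variation between embryos, and reads amplified by PCR without described molecular identifiers are not independent molecules.

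In plants, a mature miRNA is cut from 1 arm of a folded precursor and guides an Argonaute protein to transcripts that are complementary to it. miR169 is a family found across flowering plants, and its best known targets are transcripts of NF-YA, the subunit of the trimeric factor NF-Y that recognises the CCAAT box of promoters. In Arabidopsis, NF-YA genes are known for roles in embryo development and in responses to drought and nitrogen supply. Targets were not measured in these libraries.

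The mature sequences are shown because they differ in the arm they come from. Both have 21 nt, and the capitals mark the seed (bases 2 to 8).
osa-miR169c: gGCAAGTCtgtccttggctac
osa-miR169ijkmq: tAGCCAAGgatgacttgcctg

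The sequence osa-miR169ijkmq was listed on the 5p arm and starts with T, as 27 of the 31 known miRNAs of 21 nt do (87.1%). The sequence osa-miR169c was listed on the 3p arm and starts with G, as do 2 of those 31 (6.45%). No other miRNA of the 288 remaining in the tables shared the seed of either one. Over their lengths they had a longest shared run of only 4 bases, whereas osa-miR169c and the reverse complement of osa-miR169ijkmq shared a run of 10 bases. The family name therefore joins sequences of opposite arms. The 5p strand is the one usually described as complementary to NF-YA transcripts, and in osa-MIR169c that arm was not the listed one.

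The hairpin of osa-MIR169c and the first one of osa-MIR169i are given to show this, with the listed mature sequence in capitals.
osa-MIR169c: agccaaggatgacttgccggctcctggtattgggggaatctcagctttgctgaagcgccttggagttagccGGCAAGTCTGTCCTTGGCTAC
osa-MIR169i: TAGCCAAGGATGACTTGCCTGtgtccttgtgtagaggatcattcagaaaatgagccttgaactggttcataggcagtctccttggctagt

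The 5p arm of osa-MIR169c opens with AGCCAAGGATGACTTGCC, a run of 18 bases that is identical to bases 2 to 19 of osa-miR169ijkmq. Folded with RNAfold, 18 of the 21 bases of osa-miR169c paired, with partners in bases 1 to 18 of its hairpin. In each of the 5 hairpins of osa-miR169ijkmq, 19 of its 21 bases paired with the 3p arm. Those 3p arms shared the run GGCAGTCTCCTTGGCTAG of 18 bases, and 17 bases of each matched osa-miR169c over 20 aligned columns. Reads of the 5p arm of osa-MIR169c have no row of their own in the tables, so the arms of this hairpin cannot be compared. Known miRNAs were matched with up to 2 mismatches, so such 5p reads may have been counted as osa-miR169ijkmq, which was not tested.

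The locus of osa-MIR169c lies on the minus strand at chr4:30712347-30712438 of the rice genome MSU 7.0. The 5 hairpins of osa-miR169ijkmq lie on the plus strand in a pair of clusters. On chromosome 8 they are osa-MIR169i at chr8:26803159-26803248, osa-MIR169m at chr8:26807359-26807462 and a second locus with the name osa-MIR169i at chr8:26817498-26817587, which together span 14429 bp. On chromosome 9 they are osa-MIR169j at chr9:19788871-19788977 and osa-MIR169k at chr9:19792143-19792280, which span 3410 bp. The mature name holds a q, but no listed precursor does, and osa-MIR169i was listed for 2 loci. All 6 loci were annotated as exon, as were 33 of the 83 known precursors (39.8%), and the table does not name the genes.

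The hairpins were 90 to 138 nt long, with osa-MIR169k the longest. Their listed folding energies (MFE) ran from -61.1 kcal/mol for osa-MIR169k to -46.3 kcal/mol for the second osa-MIR169i. The MFE index, which divides the energy by length and G+C content, ran from 0.886 to 1.12, and 77 of the 83 known precursors (92.8%) exceeded the 0.85 that the study set for predicted miRNAs. In global alignments the hairpins on chromosome 8 were 78.8 to 81.5% identical to each other, and those on chromosome 9 were 65.5% identical. Hairpins of different clusters were 57.6 to 69.2% identical, and osa-MIR169c was 54.9 to 66.3% identical to the others. All 5 hairpins of osa-miR169ijkmq contain the same mature sequence, so its reads cannot be assigned to a locus. Reads of the 5p arm of osa-MIR169c may also be among them. No known mature sequence of the table has more than 5 precursors, and 2 of the 59 have 5.

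**Figure D1:**
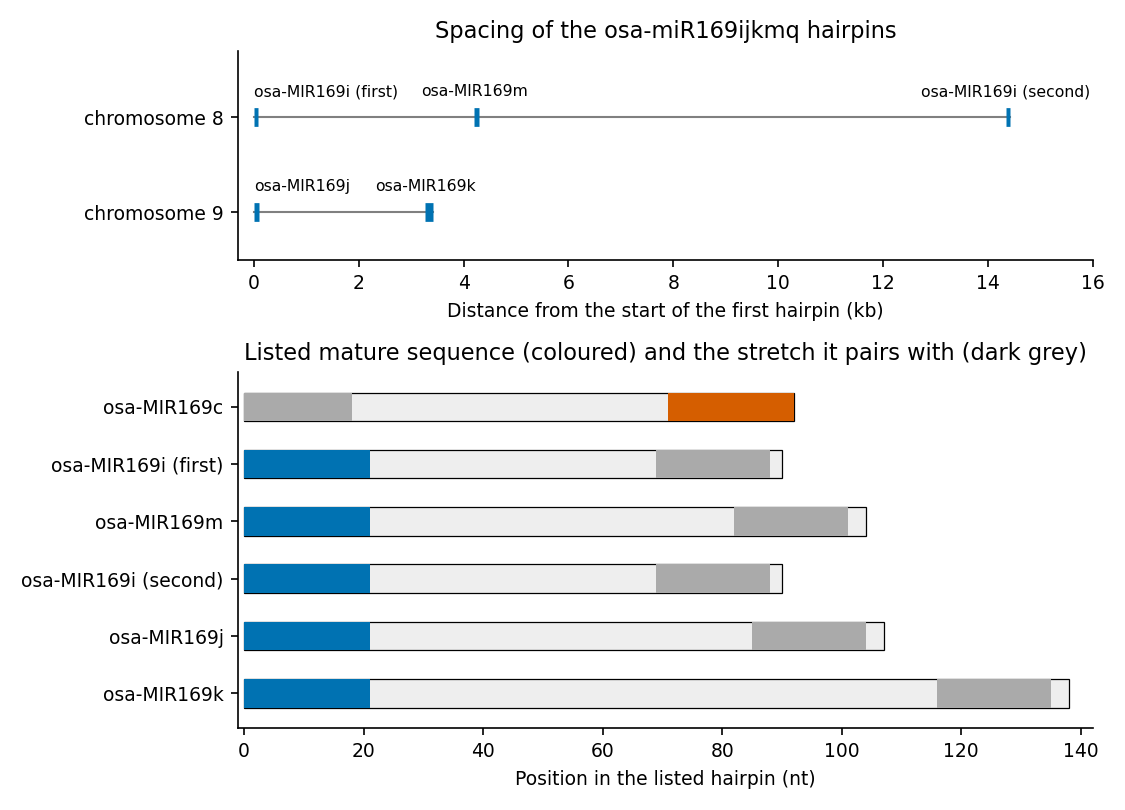
Positions of the miR169 hairpins. The upper panel plots the distance of each osa-miR169ijkmq hairpin from the first one on its chromosome in kb, and the lower panel plots each listed hairpin in nt, with osa-miR169c in orange, osa-miR169ijkmq in blue and the stretch paired with it by RNAfold in dark grey. The coloured block is at the left end in 5 hairpins and at the right end in osa-MIR169c.

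The libraries held 19203513, 22332607 and 17359816 genome-mapped reads at 0, 12 and 24 HAI, of which 285143, 634097 and 590212 belonged to the 289 miRNAs. The unit TPM is the reads of a sequence per 1000000 genome-mapped reads of its library. A single read was worth 0.0521, 0.0448 and 0.0576 TPM at these times. The miRNAs held 1.48, 2.84 and 3.40% of the mapped reads in that order, and this gain enters every ratio in TPM.

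The sequence osa-miR169c was nearly absent from the dry embryo. It had 6, 199 and 355 reads in the libraries of 0, 12 and 24 HAI, which are 0.312 TPM (exact Poisson 95% limits, 0.115–0.680), 8.91 TPM (7.72–10.2) and 20.4 TPM (18.4–22.7). It thus stood above the limit of 3 reads that a count of 0 allows in every library, but at 0 HAI only by a few reads. Among the 59 known miRNAs it ranked 53rd by reads at 0 HAI, 42nd at 12 HAI and 32nd at 24 HAI.

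The sequence osa-miR169ijkmq was already present in the dry embryo, and most of its increase fell in the later interval. Its reads numbered 120 at 0 HAI, 223 at 12 HAI and 985 at 24 HAI. These are 6.25 TPM (5.18–7.47), 9.99 TPM (8.72–11.4) and 56.7 TPM (53.3–60.4). Its rank among the known miRNAs was 33rd, 41st and 24th. At 12 HAI the limits of the 2 sequences overlapped, while at 0 and 24 HAI osa-miR169ijkmq was above osa-miR169c with limits apart.

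**Figure D2:**
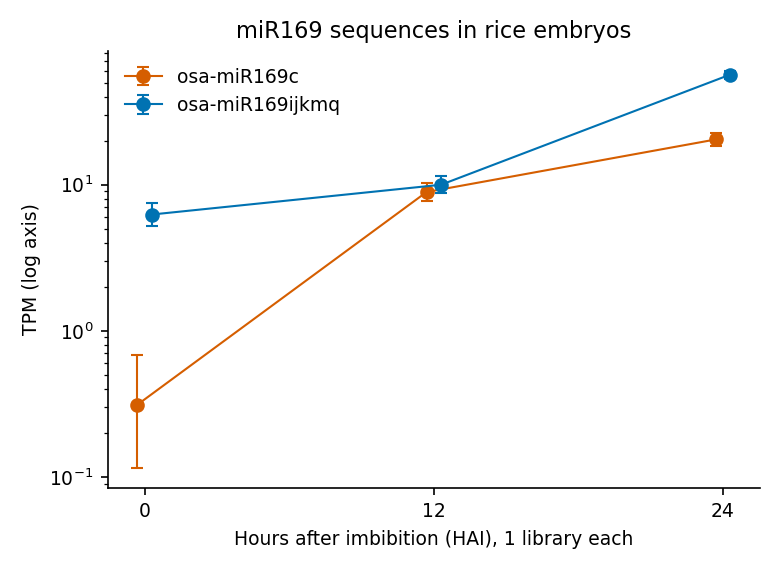
Level of each miR169 sequence in TPM on a log axis against hours after imbibition, 1 library per point, with exact Poisson 95% limits as bars. The lines meet at 12 HAI, where osa-miR169c had 8.91 TPM and osa-miR169ijkmq 9.99 TPM, and lie apart at 0 and 24 HAI.

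Together, the family had 126, 422 and 1340 reads at 0, 12 and 24 HAI, or 6.56, 18.9 and 77.2 TPM. This was 0.0442% (exact 95% limits, 0.0368–0.0526%), 0.0666% (0.0604–0.0732%) and 0.227% (0.215–0.240%) of the miRNA reads. By reads, miR169 stood 25th, 26th and 17th among the 42 families of the table, and it held at most 0.227% of the miRNA reads. In TPM the family's ratio of 12 to 0 HAI was 2.88 (exact conditional 95% limits, 2.35–3.54), the 13th highest of the 42 families, whose median ratio was 1.94. The ratio of 24 to 0 HAI was 11.8 (9.79–14.2), the fifth highest, against a median of 2.41. From 12 to 24 HAI the ratio was 4.08 (3.66–4.57), the second highest, against a median of 1.11.

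Between 0 and 12 HAI, osa-miR169c rose 28.5-fold in TPM (limits 12.9–78.6), with an adjusted p of 2.47e-44 from the two-sided exact conditional binomial test on the reads of the 2 libraries, adjusted over 288 miRNAs. This was the 8th highest ratio among the 141 miRNAs that had 100 or more reads over all 3 libraries combined, and 10 of the 140 of them with a read at 0 HAI rose over 20-fold. The ratio of osa-miR169ijkmq was 1.60 (1.27–2.01, adjusted p = 9.55e-05 from the same exact test), which was below the median of 1.76 among these 141 miRNAs. So 1 of the 2 sequences was past 2-fold higher, where 39.2% of all miRNAs with a read in this pair were. The exact test called both sequences higher, as it did 48.6% of all miRNAs.

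Between 12 and 24 HAI the order was the other way round. The ratio of 24 to 12 HAI was 5.68 for osa-miR169ijkmq (limits 4.91–6.60, adjusted p = 7.76e-159 from the exact test), the highest among the 141 miRNAs with at least 100 reads. It was 2.29 for osa-miR169c (1.92–2.74, adjusted p = 1.02e-20 from the exact test), the 11th highest, while the median was 1.08. Among all 59 known miRNAs, with no filter on reads, osa-miR169ijkmq ranked 2nd and osa-miR169c 8th. Both sequences were past 2-fold higher, as were 13.8% of all 289 miRNAs, and the exact test called 20.1% of them higher. For osa-miR169c the lower limit did not reach 2.

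Over the whole interval, the 24 to 0 HAI ratio of osa-miR169c was 65.5 (29.8–180, adjusted p = 1.04e-103 from the exact test) and that of osa-miR169ijkmq was 9.08 (7.51–11.1, adjusted p = 4.15e-188). They ranked 7th and 18th among the 141 miRNAs. Both passed 2-fold, as did 50.5% of all 289 miRNAs, and the exact test called 52.9% higher. Among the 28 known miRNAs of class I, which the table describes as highly conserved and to which both sequences belong, 17 were past 2-fold higher at 24 HAI than at 0 HAI and 0 past 2-fold lower, with a median ratio of 3.28, against 2.00 over all 289 miRNAs. For 24 over 12 HAI, 7 of these 28 were past 2-fold higher and 0 lower, with a median of 1.23, against 1.12 over all. The counts for 12 over 0 HAI were 13 and 0, with a median of 1.91, against 1.78 over all.

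**Figure D3:**
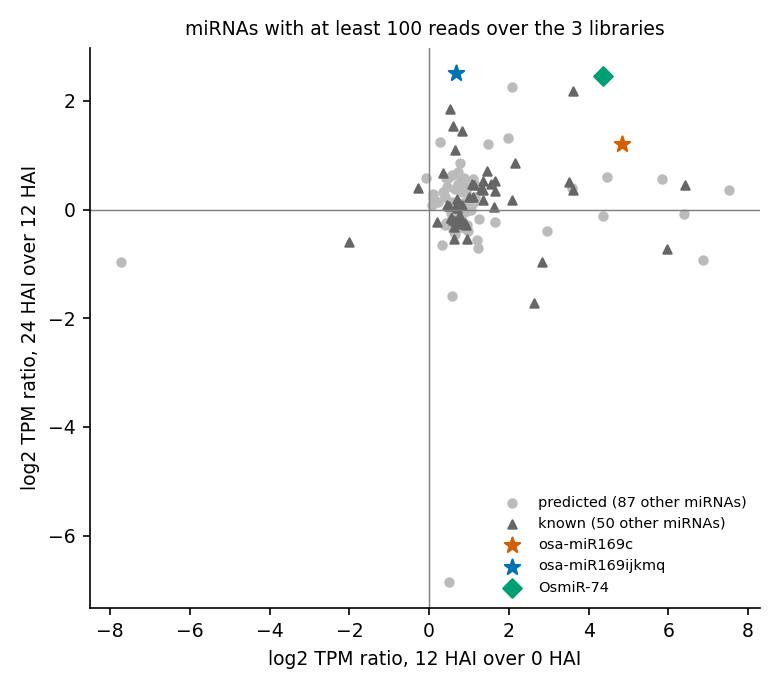
The log2 TPM ratio of 24 over 12 HAI against that of 12 over 0 HAI for the 140 miRNAs with a read at 0 HAI and 100 or more reads in the 3 libraries together, with the miR169 sequences as stars and OsmiR-74 as a diamond. On the log2 scale osa-miR169c lies far to the right (4.83, 1.20), and osa-miR169ijkmq at the top near the middle (0.68, 2.51).

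The denominator mattered for the first interval. When the summed miRNA reads were used in place of the genome-mapped reads, the log2 ratio of every miRNA moved by -0.94 for 12 over 0 HAI, by -1.20 for 24 over 0 HAI and by -0.26 for 24 over 12 HAI. The ratio of osa-miR169ijkmq at 12 over 0 HAI was then 0.836 (limits 0.666–1.05, adjusted p = 0.319 from the exact test), so its direction turned and no difference was called. With the TMM factors of edgeR it was 0.912 (adjusted p = 0.718 from the exact test), and with the size factors of DESeq2 it was 0.885 (adjusted p = 0.577). The ratio of osa-miR169c for this pair fell from 28.5 with genome-mapped reads to 14.9 to 16.3 under the 3 scalings, and its direction did not turn. For 24 over 0 HAI, the ratios under these scalings were 28.6 to 32.9 for osa-miR169c and 3.97 to 4.56 for osa-miR169ijkmq. For 24 over 12 HAI they were 1.92 to 2.08 for osa-miR169c and 4.75 to 5.16 for osa-miR169ijkmq, so that with the summed miRNA reads osa-miR169c was no longer past 2-fold in this pair. The ratio of the whole family was 1.51 to 1.64 for 12 over 0 HAI under these scalings, no longer past 2-fold, 5.14 to 5.91 for 24 over 0 HAI and 3.41 to 3.71 for 24 over 12 HAI. With that denominator 17.0%, 19.4% and 9.69% of all miRNAs were past 2-fold higher for 12 over 0, 24 over 0 and 24 over 12 HAI, and the exact test called 12.2%, 16.3% and 12.1% higher.

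**Figure D4:**
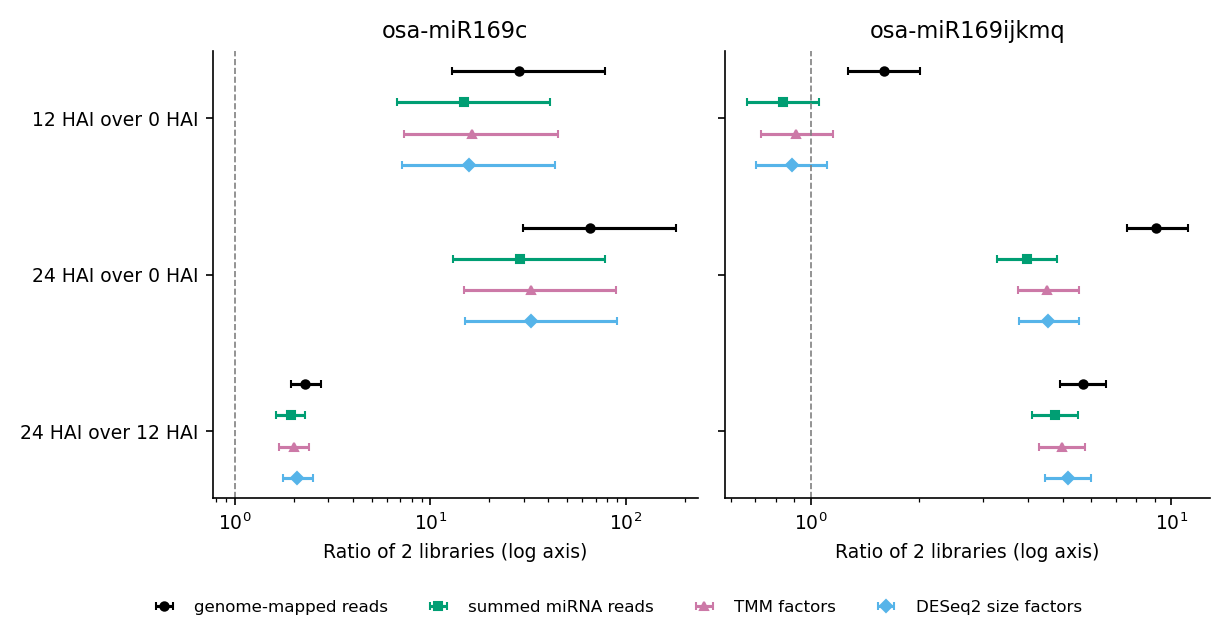
Ratio between libraries for each miR169 sequence on a log axis, under 4 denominators, with exact conditional 95% limits as bars and a dashed line at 1. Every point lies to the right of the line except osa-miR169ijkmq at 12 HAI over 0 HAI, where the black point for genome-mapped reads is at 1.60 and the other points are at 0.836 to 0.912 with limits across the line.

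The balance between the 2 sequences needs no denominator, since both were counted in the same library. Of the miR169 reads, osa-miR169c held 6 of 126 at 0 HAI, 199 of 422 at 12 HAI and 355 of 1340 at 24 HAI. These shares were 4.76% (exact Clopper-Pearson 95% limits, 1.77–10.1%), 47.2% (42.3–52.0%) and 26.5% (24.1–28.9%). The share was therefore highest at 12 HAI and was intermediate at 24 HAI, and none of the limits overlapped. It compares the 2 listed sequences and not their loci, since 5p reads of osa-MIR169c may be counted under osa-miR169ijkmq.

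The odds of an osa-miR169c read against an osa-miR169ijkmq read were 17.8 times as high at 12 HAI as at 0 HAI (limits 7.69–50.5), with an adjusted p of 5.01e-21 from a two-sided Fisher's exact test over 3 pairs of libraries. They were 7.21 times as high at 24 HAI as at 0 HAI (3.17–20.2, adjusted p = 1.02e-09 from Fisher's exact test). At 24 HAI they were 0.404 times those at 12 HAI (0.320–0.510, adjusted p = 1.19e-14 from Fisher's exact test). The 2 sequences of the family thus changed by different factors in each interval, and the tests compare libraries and not conditions.

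**Figure D5:**
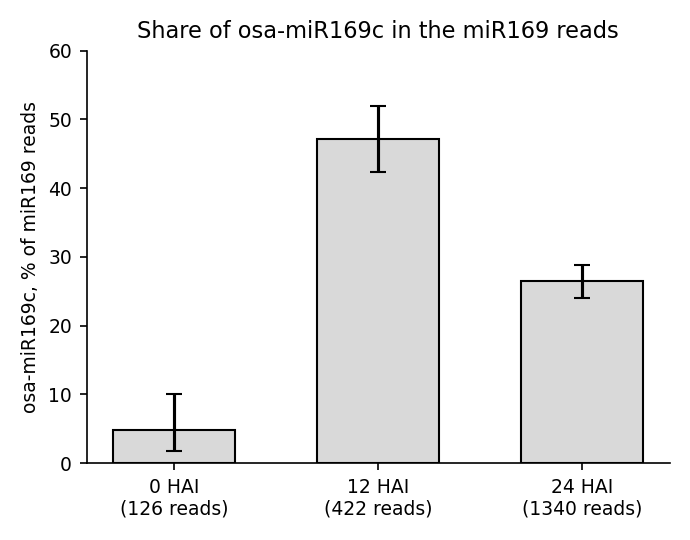
Share of osa-miR169c in the miR169 reads of each library in percent, with exact Clopper-Pearson 95% limits as bars and the number of miR169 reads under each bar. From left to right the shares are 4.76%, 47.2% and 26.5%, and the limits of the 3 libraries do not overlap.

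The table of predicted miRNAs, which are named OsmiR, holds 2 further sequences whose precursors contain osa-miR169ijkmq, out of 230, and no precursor that shares the hairpin of osa-MIR169c. They were not counted as miR169 because the table gives them no family, and they are shown here because their precursors overlap the listed miR169 hairpins.
OsmiR-52: TGGGCAGTCTCCTTGGCTAGC
OsmiR-74: TGGCGATGAGAGCTCGCATCTGG

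OsmiR-52 is the 3p arm of 2 of the 5 hairpins of osa-miR169ijkmq, osa-MIR169m and the second osa-MIR169i, and 18 of its 21 bases lie in the run that all 5 hairpins share. It had 0, 0 and 8 reads at 0, 12 and 24 HAI, against 120, 223 and 985 reads of osa-miR169ijkmq. At 24 HAI it made up 0.806% of the reads of this pair of sequences (exact 95% limits, 0.348–1.58%). The reads of osa-miR169ijkmq can come from all 5 hairpins, so this is not a ratio between the arms of a hairpin. The 0 reads of OsmiR-52 at 0 and 12 HAI are compatible with up to 3. These are 0.156 TPM at 0 HAI and 0.134 TPM at 12 HAI, so the absence of OsmiR-52 there was not established. The table of known miRNAs marks the column for a miRNA* of osa-miR169ijkmq as "no". The 3p sequence listed for osa-MIR169c had 355 reads at 24 HAI.

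OsmiR-74 has 23 nt and lies beside the miR169 sequence in the longer precursor OsMIR-74, of 152 nt, on the plus strand at chr9:19788848-19788999. It fills bases 1 to 23, and osa-miR169ijkmq starts at base 24, with no base between them. The precursor is printed with OsmiR-74 in capitals.
OsMIR-74: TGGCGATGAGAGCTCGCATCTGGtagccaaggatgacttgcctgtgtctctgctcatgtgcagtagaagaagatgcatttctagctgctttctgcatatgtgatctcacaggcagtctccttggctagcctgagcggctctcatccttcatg

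OsmiR-74 had 1, 24 and 103 reads at 0, 12 and 24 HAI, or 0.0521, 1.07 and 5.93 TPM. Its ratio of 24 to 12 HAI was 5.52 (exact conditional 95% limits, 3.51–9.01), next to 5.68 for osa-miR169ijkmq. On the log2 scale these are 2.46 and 2.51, and other miRNAs came close, with 2.26 for OsmiR-232 and 2.18 for osa-miR156l. The ratio of OsmiR-74 for 12 to 0 HAI was 20.6 but rests on 1 read (3.37–849). Of the summed reads of both sequences, OsmiR-74 held 0.826% (0.0209–4.52%), 9.72% (6.33–14.1%) and 9.47% (7.79–11.4%) at 0, 12 and 24 HAI. The shares at 12 and 24 HAI lay within each other's limits, while the limits at 0 HAI, with 1 read of OsmiR-74, lay below both. OsmiR-74 has 1 listed precursor and osa-miR169ijkmq has 5, so these are not shares within a single locus.

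The miRNAs with the most similar time courses were found by the Euclidean distance between TPM values divided by their maximum over the 3 libraries, among 139 other miRNAs with at least 100 reads. These relative values were 0.0153, 0.436 and 1 for osa-miR169c and 0.110, 0.176 and 1 for osa-miR169ijkmq. Nearest to osa-miR169c were OsmiR-111 (distance 0.0940), OsmiR-160 (0.141) and osa-miR528 (0.163). Nearest to osa-miR169ijkmq were OsmiR-232 (0.0687), OsmiR-74 (0.101) and osa-miR156l (0.103). With 3 points per time course, this is a description only. The reads at 0, 12 and 24 HAI were 8, 39 and 145 for OsmiR-232, 3, 43 and 151 for osa-miR156l, and 45, 234 and 327 for osa-miR528.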

How the data were processed

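Small RNA libraries from embryos at 0, 12 and 24 HAI were grouped by their labels. The authors filtered the reads with FastQC, kept 18–30 nt, mapped them with Bowtie to MSU 7.0, removed other noncoding RNAs of Rfam, and matched known miRNAs to miRBase 21 with up to 2 mismatches. With such mismatches, reads of near-identical family members can be counted together. Further miRNAs were predicted with miRDeep2. The deposited read counts are not normalized. The deposited TPM values equal the counts per 1000000 genome-mapped reads within a relative difference of 1e-06. The library totals were derived from these counts and TPM values, and they equal the genome-mapped reads that the study gives. The folding scores (MFE) were computed by the authors with Mfold.

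The first of 2 identical copies of the known table was read. A mature sequence repeated over precursors was counted once, and 1 predicted sequence without a name was left out. The quasi-likelihood test of edgeR needs replicates and could not be fitted. For each pair of libraries, a two-sided exact binomial test conditional on the summed reads was used, Benjamini-Hochberg adjusted over the miRNAs with a read in the pair, or over the 42 families, at 0.05. A ratio past 2-fold between 2 libraries was called changed. The study applied its 2-fold rule to each TPM divided by its maximum over the 3 libraries, and not to pairs. The test and the limits were run on simulated independent Poisson counts with known folds. Those counts hold no PCR duplication and no variation between embryos, so the run checks the calculation only. Alternatives were other denominators (summed miRNA reads, TMM, DESeq2 size factors), 1 read added, filters of 10 and 100 reads, a fold of 3, limits past 2-fold, every row counted, known miRNAs alone, and RNAfold. The text names both miR169 sequences with their loci and the 3 miRNAs nearest to each in time course. OsmiR-52 and OsmiR-74 were added after their precursors were seen. The members, lists and tests were chosen with earlier results of these data known. Tools were Python 3.11.15, scipy 1.17.1, Biopython 1.88, RNAfold 2.7.2, edgeR 4.0.16 and DESeq2 1.42.0. Target sites in transcripts were not analysed here.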

Additional observations from a re-analysis of the deposited data

How the results depend on the processing

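Of 39 ratios of the miR169 sequences and the family under alternatives that could move them (other denominators, 1 read added, every row counted), 36 kept their direction and their exact-test call at an adjusted p of 0.05. The other 3 were osa-miR169ijkmq at 12 over 0 HAI, which turned to 0.836, 0.912 and 0.885 with the summed miRNA reads, TMM factors and DESeq2 size factors, against 1.60 with genome-mapped reads. Only the denominator differs between these fits, and the miRNA share of the mapped reads grew over the same interval. At the 2-fold rule 5 of the 39 ratios changed side. These were osa-miR169c at 24 over 12 HAI with the summed miRNA reads (1.92) and the family at 12 over 0 HAI with the summed miRNA reads (1.51), TMM factors (1.64), DESeq2 size factors (1.59) and every row counted (1.86). With 1 read added, the odds between the 2 sequences were 15.4, 6.24 and 0.404 for 12 over 0, 24 over 0 and 24 over 12 HAI. With every row counted, so that osa-miR169ijkmq counts 5 times, the share of osa-miR169c was 0.990%, 15.1% and 6.72% at 0, 12 and 24 HAI. RNAfold gave -45.5 kcal/mol for the first osa-MIR169i, -50.9 for osa-MIR169j and -62.2 for osa-MIR169k, against listed values of -46.9, -52.5 and -61.1.

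The counts of all miRNAs past 2-fold were 113, 146 and 40 higher and 6, 7 and 15 lower for 12 over 0, 24 over 0 and 24 over 12 HAI. With the summed miRNA reads, TMM factors and DESeq2 size factors, 49, 51 and 50 were higher and 21, 18 and 18 lower for 12 over 0 HAI, and 56, 67 and 68 higher and 33, 24 and 23 lower for 24 over 0 HAI. With at least 100 reads, 46, 66 and 12 were higher and 2, 4 and 3 lower over the 3 pairs, and with at least 10 reads in a library 2 were lower for 12 over 0 HAI. A fold of 3 gave 64, 90 and 18 higher, with 4 lower for 24 over 0 and 7 for 24 over 12 HAI. Limits past 2-fold gave 36, 59 and 12 higher and 2, 3 and 4 lower. The 6 reads of osa-miR169c at 0 HAI limit the precision of its ratios. No paired analysis was possible because each time point has 1 library.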
